A study of Mus musculus with 9 samples.

Results

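Genes of the interferon response were followed in mouse primary myoblasts given BMP4 or its secreted antagonist GREM1. The genes described are those whose symbol starts with Ifit, Oas, Gbp, Irgm, Iigp, Irf or Mx followed by a digit, 41 of 24011 named genes. They were 5 Ifit genes, 10 Oas genes, 10 guanylate-binding protein (Gbp) genes, the 3 GTPase genes Irgm1, Irgm2 and Iigp1, the 2 Mx genes and 8 interferon regulatory factors (Irf). The symbol rule also took in Irf2bp1, Irf2bp2 and Irf2bpl, which encode proteins named for binding IRF2 and are not Irf factors. Myoblasts derived from satellite cells, the stem cells of skeletal muscle, were expanded with 20% fetal bovine serum and basic FGF on collagen. They were then kept in medium with 2% horse serum, and RNA was taken after 24 h. The 3 groups of 3 arrays were mock-treated controls, cells given 100 ng/ml BMP4 protein and cells given 500 ng/ml GREM1 protein. The labels used here give no strain, sex or age and do not say whether replicates were separate cultures, so the spread behind each p-value may be technical.

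Interferons bind receptors on the cell surface, and Janus kinases (Jak1, Jak2, Tyk2) then activate STAT proteins. With IRF9 these form a complex that binds the interferon-stimulated response element (ISRE) in the promoters of Ifit, Oas, Mx and many other genes. IRF3 and IRF7 switch on interferon genes after viral nucleic acid is sensed, and IRF1 carries much of the response to interferon gamma. Gbp and Irgm proteins are GTPases that act on the vacuoles of intracellular microbes, Ifit proteins bind foreign RNA, and Oas enzymes make the oligoadenylates that activate an RNA-degrading enzyme.

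Promoter stretches of 6 genes are shown because they carry the letters through which many interferon-induced genes are known to be switched on. RefSeq promoter windows of 300 bases (GRCm38.p6, 250 before and 50 after the annotated start) were matched for 29 of the 41 genes. The ISRE-like string, GAAA followed after any 2 bases by another GAAA and searched on both strands with overlapping matches allowed, occurred in windows of 16 of these 29 genes (55.2%) and of 1079 of 27025 genes in all (3.99%). The string TTCNNNGAA, the core of the gamma-activated site that STAT dimers bind, occurred in 9 of the 29 (31.0%) and in 9.55% of all genes. The Ifit1 stretch lies at chr19:34640784-34640813 (plus strand), Ifit3 at chr19:34583397-34583426 (plus), Oas3 at chr5:120777690-120777769 (minus), Irgm1 at chr11:48871421-48871482 (minus), Irgm2 at chr11:58214878-58214957 (plus) and Gbp2 at chr3:142620569-142620648 (plus). Each reads 5′ to 3′ on the gene's strand, capitals mark the ISRE-like string or its reverse complement, and in Irgm1 the capitals hold 2 overlapping matches.
Ifit1: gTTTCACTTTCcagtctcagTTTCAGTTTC
Ifit3: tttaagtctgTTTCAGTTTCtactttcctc
Oas3: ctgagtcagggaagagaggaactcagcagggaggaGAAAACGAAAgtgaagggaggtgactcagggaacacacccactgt
Irgm1: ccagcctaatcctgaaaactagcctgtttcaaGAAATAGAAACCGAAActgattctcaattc
Irgm2: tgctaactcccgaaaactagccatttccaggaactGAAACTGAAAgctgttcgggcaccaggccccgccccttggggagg
Gbp2: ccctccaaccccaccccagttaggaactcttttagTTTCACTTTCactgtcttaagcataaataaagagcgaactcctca
The ISRE-like string was found for 7 of the 17 tested genes with a window (41.2%) and for 9 of the 12 dim ones (75.0%). Among the tested genes the windows of Ifit2, Irf1, Irf3, Irf5, Irf7, Irf8 and Irf9 and of the Irf2bp genes did not hold it. Among the dim genes those of Irf4, Oas1f and Oas1h did not. The tested and dim shares thus cover unlike families, and a link of the string with level was not tested. A match is a run of letters and does not show binding. The Gbp8, Gbp9, Gbp4, Gbp10, Gbp11, Oas2, Mx1 and Mx2 promoters had no matched window, nor did those of Iigp1, Oas1b, Oas1d and Oas1e.

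Values are the authors' log2 expression, with array medians from 5.00 to 5.12. Genes above the 30th percentile of an array, a cut between 3.89 and 4.02, on 3 or more arrays entered the test, and the others are called dim. Of all genes, 17142 were tested. Control replicate 1 stood apart on the second principal component. All 10 myoblast identity markers were tested, with a mean level over the 10 of 8.44 to 9.02 across arrays, and Itga7, Cdh15 and Ncam1 of these rose with GREM1 (adjusted p = 0.00321, 0.00348 and 0.0485, the last lost without any GREM1 array, control replicate 1 or 3, or BMP4 replicate 1 or 2, up to 0.149). Cdh15 and Itga7 were also lower with BMP4 than with GREM1, by 1.23 ± 0.11 and 1.04 ± 0.12 (adjusted p = 2.33e-04 and 9.12e-04). Each difference is on the log2 scale and is given with its standard error (SE) from 1 limma fit of all 9 arrays, and adjusted p-values are Benjamini-Hochberg values over all tested genes, with 0.05 as the threshold. Of all tested genes 4.28% passed it for GREM1 against control and 6.45% for BMP4 against GREM1. Of the 10 myoblast markers 2, 6 and 5 had an unadjusted p under 0.05 for BMP4 against control, GREM1 against control and BMP4 against GREM1. These are 20.0%, 60.0% and 50.0%, against 8.02%, 20.0% and 19.4% of all genes. A level of 1 gene is not set against that of another, because each has its own probes.

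Of the 41 genes, 22 were tested and 19 were dim. The dim genes ran from 2.12 to 4.22 over the 9 arrays, and 16 of them lay below the cut on every array. Both Mx genes were dim, as were Iigp1, Irf4, Ifit1bl1, all 8 Oas1 genes and 6 of the 10 Gbp genes. The tested genes were Ifit1, Ifit1bl2, Ifit2 and Ifit3, Oas2 and Oas3, Irgm1 and Irgm2, Gbp4, Gbp8, Gbp9 and Gbp10, 7 Irf factors and the 3 Irf2bp genes.

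Gbp8 was the only one of the 22 tested genes to pass the threshold in any of the 3 comparisons in the fit without a replicate block, and it did so between BMP4 and GREM1. For BMP4 against control 0 of 22 passed in limma, where 20 of all tested genes (0.117%) did (65 with the replicate number as a block), and 1 (Gbp8) had an unadjusted p under 0.05 (8.02% of all genes did). For GREM1 against control 0 of 22 passed, where 734 genes (4.28%) did, 355 higher and 379 lower, or 387 and 272 with arrays centred on their medians. With the replicate block 1985 genes passed there, Gbp8 among them. In the fit without the block 4 of the 22, Gbp8, Ifit2, Irf2 and Irf2bp1, had an unadjusted p under 0.05 (18.2%, against 20.0% of all genes). Between BMP4 and GREM1 1 of 22 passed (4.55%), against 6.45% of all genes, and Gbp4, Gbp8, Ifit2 and Irgm2 had an unadjusted p under 0.05 (18.2%, against 19.4%). With the replicate block 2192 genes passed between BMP4 and GREM1, Gbp8 and Gbp9 among them. Replicate numbers pair the BMP4 and GREM1 arrays only weakly, with a same-number correlation as low as 0.088. This limit holds for every block value of that comparison. In the fit without the block each of these shares of the 22 genes was somewhat below that of all genes, on counts of 0 to 4.

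The 95% interval of the difference shows how large a change these arrays leave room for. With BMP4 it stayed within 2-fold either way for 20 of the 22 genes, the others being Gbp4 and Gbp8, and within 1.5-fold for 18. With GREM1 it stayed within 2-fold for 20, the others being Gbp8 and Gbp9, and within 1.5-fold for 17. Over all tested genes 97.7% lay within 2-fold with BMP4 and 94.3% with GREM1. The median difference of the 22 genes was -0.064 with BMP4, where that of all genes was -0.0060, and 0.079 with GREM1, where that of all genes was -0.0057. Both comparisons use the same 3 control arrays. Without control replicate 2 the BMP4 median was -0.039, and without GREM1 replicate 1 or 3 the GREM1 median was 0.048 and 0.042. With arrays centred on their medians the BMP4 median was -0.029.

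**Figure D1:**
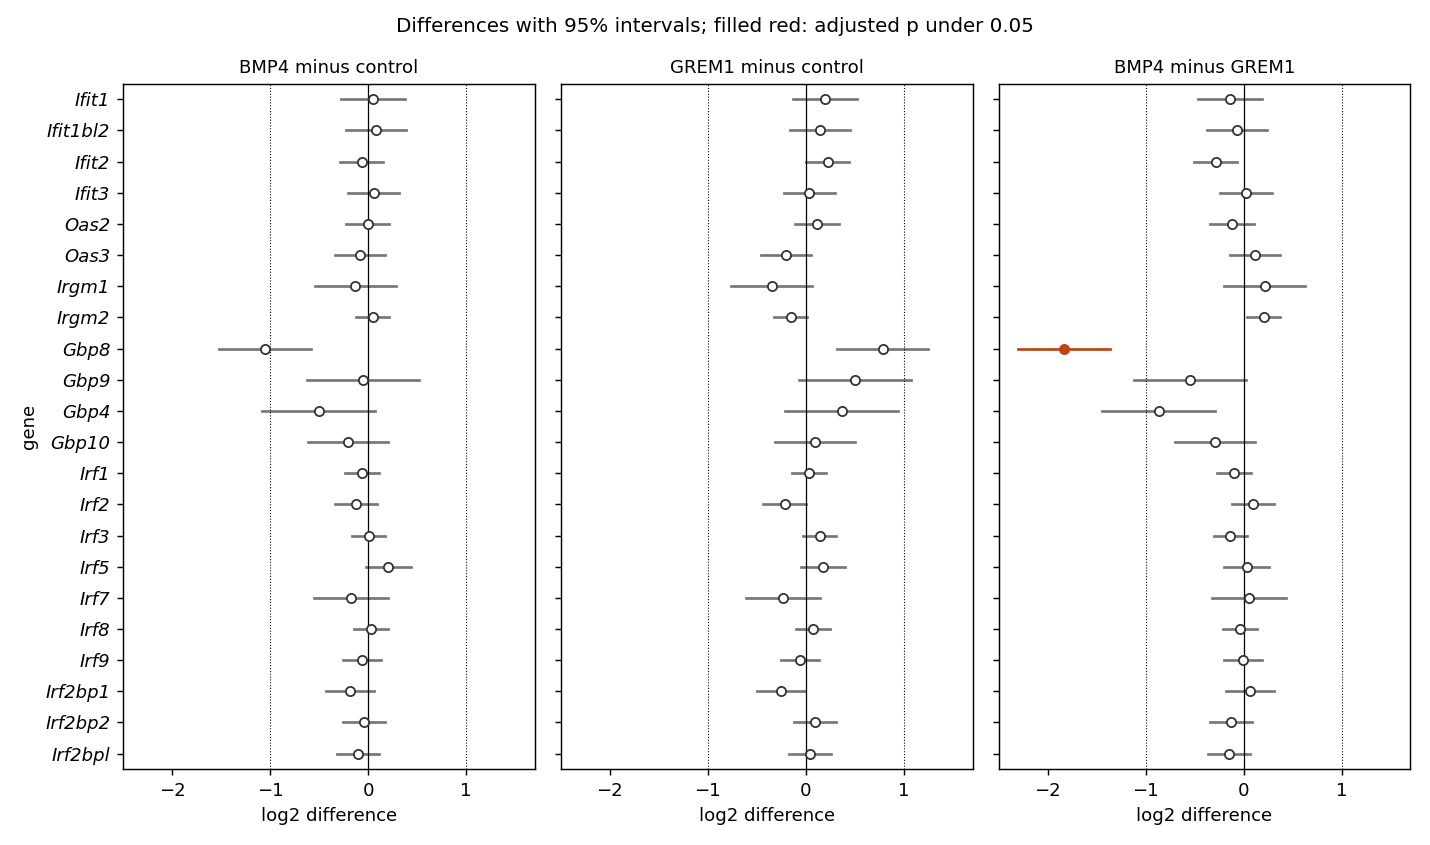
Log2 differences (x axes) of the 22 tested genes (y axis) for BMP4 minus control, GREM1 minus control and BMP4 minus GREM1. Points are limma estimates, lines their 95% intervals, dotted lines mark 2-fold, and the filled red point, Gbp8 at -1.84, is the value with an adjusted p under 0.05.

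Gbp8 encodes a guanylate-binding protein. Its levels were 7.41, 7.67 and 7.26 in the controls, 5.98, 6.75 and 6.43 with BMP4 and 8.12, 8.00 and 8.55 with GREM1. Every BMP4 array lay below every control array, and every GREM1 array lay above all others. Gbp8 was 1.84 ± 0.21 (SE) lower with BMP4 than with GREM1, a 3.57-fold difference (95% interval 1.37 to 2.30 in log2, limma adjusted p = 8.53e-04, n = 3 arrays a group). This call held under all 18 alternatives, with adjusted p from 5.54e-04 to 0.00589. Against the controls the difference was -1.05 ± 0.21 with BMP4 (2.08-fold lower, adjusted p = 0.147) and 0.78 ± 0.21 with GREM1 (1.72-fold higher, adjusted p = 0.0696), and neither passed. With the replicate number as a block GREM1 against control passed (adjusted p = 0.0340) and BMP4 against control did not (adjusted p = 0.0751). GREM1 against control also passed without BMP4 replicate 1 (adjusted p = 0.0491), an array that enters only the estimate of the spread. Without control replicate 1, which stood apart over all genes, the differences from control were -1.07 and 0.76 (adjusted p = 0.385 and 0.165).

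Of the genes described, Gbp8, Gbp9, Gbp4, Gbp10 and Gbp11 lie in that order on chromosome 5 in the RefSeq table of GRCm38.p6. Any other gene between them was not read. Gbp4 was 5.83, 5.76 and 5.30 in the controls, 4.97, 5.09 and 5.32 with BMP4 and 5.55, 5.80 and 6.64 with GREM1. All 3 GREM1 arrays lay above the 3 BMP4 arrays, while the controls overlapped both. The difference of BMP4 from GREM1 was -0.87 ± 0.26 and did not pass (adjusted p = 0.0850), and against control it was -0.50 ± 0.26 with BMP4 and 0.36 ± 0.26 with GREM1 (adjusted p = 0.658 and 0.473). Gbp9 was 6.92, 7.14 and 7.30 in the controls, 6.94, 6.75 and 7.51 with BMP4 and 7.49, 7.20 and 8.16 with GREM1. Its groups overlapped in each comparison. For Gbp9 GREM1 differed from control by 0.50 ± 0.25 (adjusted p = 0.314, or 0.0517 with the replicate block). BMP4 differed from GREM1 by -0.55 ± 0.25 (adjusted p = 0.277, or 0.0330 with the block). Gbp10 was 6.51, 6.44 and 6.64 in the controls, 6.35, 6.20 and 6.44 with BMP4 and 6.29, 6.48 and 7.10 with GREM1, with no comparison past the threshold (lowest adjusted p = 0.447).

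GREM1 replicate 3 was the highest of the 9 arrays for each of Gbp8, Gbp9, Gbp4, Gbp10 and the dim Gbp11. Over all tested genes it was the highest array in 11.1%. Without it the GREM1 difference from control was 0.62 for Gbp8 (adjusted p = 0.162), 0.23 for Gbp9, 0.045 for Gbp4 and -0.15 for Gbp10. Gbp8 still passed between BMP4 and GREM1 without it, at -1.67 (adjusted p = 0.00404). Gbp11, annotated as a transcribed pseudogene, lay below the cut on every array, at 2.69 to 2.84 in the controls, 2.65 to 2.74 with BMP4 and 2.88 to 3.64 with GREM1. Gbp genes resemble each other in sequence, and how far the probe sets tell them apart was not tested.

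**Figure D2:**
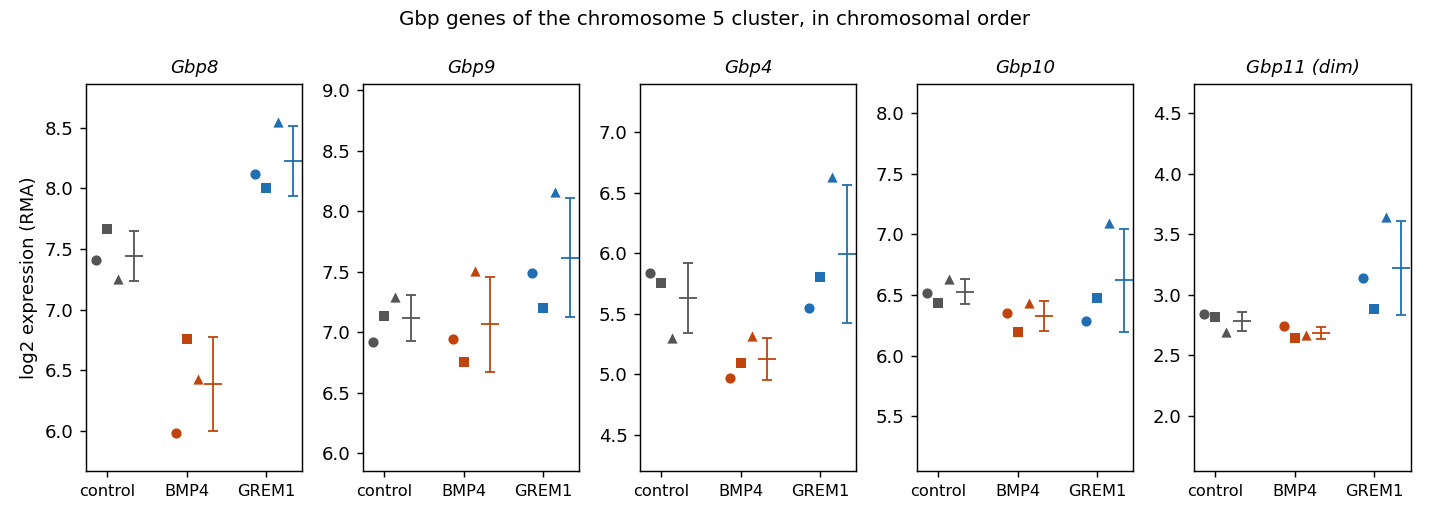
Log2 expression (y axes, each spanning the same number of log2 units) of 5 Gbp genes of chromosome 5 in control, BMP4 and GREM1 arrays (circle replicate 1, square replicate 2, triangle replicate 3). Bars to the right are means with SD, n = 3; Gbp8 groups do not overlap, and the triangle of GREM1 replicate 3 is the highest point in every panel.

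The nearest tested protein-coding genes beside this group, 3 on each side, were read for comparison. On the Gbp8 side Mepe, Thoc2l and Zfp33b differed by -0.085 to 0.054 between BMP4 and GREM1, none past the threshold. On the Gbp11 side the volume-regulated anion channel genes Lrrc8b, Lrrc8c and Lrrc8d differed by -0.61 ± 0.18, 0.70 ± 0.14 and -0.27 ± 0.15. Of these Lrrc8c passed, higher with BMP4 (adjusted p = 0.0186), and Lrrc8b did not (adjusted p = 0.0869). Lrrc8b was 5.96, 6.21 and 6.59 in the controls, 5.83, 5.77 and 6.02 with BMP4 and 6.38, 6.26 and 6.81 with GREM1, so its BMP4 arrays lay below its GREM1 arrays, as did those of Lrrc8d. Lrrc8b passed with array weights (adjusted p = 0.0296), without control replicate 3 (0.0488) and with the replicate block (0.00593). Lrrc8c was 7.11, 7.04 and 7.41 in the controls, 7.11, 7.04 and 7.49 with BMP4 and 6.45, 6.66 and 6.45 with GREM1, and its call was lost without BMP4 replicate 3 or GREM1 replicate 1 or 3 (adjusted p up to 0.0769). Lrrc8b and Lrrc8d thus had differences of the same sign as Gbp8, and Lrrc8c of the opposite sign.

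The Gbp genes of chromosome 3, Gbp5, Gbp7, Gbp3, Gbp2b and Gbp2, were all dim. All 5 hold the ISRE-like string in a matched window, as printed above for Gbp2. Gbp2 was 3.94, 3.86 and 4.03 in the controls, 3.95, 3.52 and 3.73 with BMP4 and 4.22, 3.82 and 3.88 with GREM1, with overlapping groups. Without the filter the 5 genes differed from control by -0.21 to -0.058 with BMP4 and by -0.069 to 0.025 with GREM1, and none passed (lowest adjusted p = 0.753 and 0.854).

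The other interferon-inducible GTPases gave no call. Irgm1, which guides the clearance of vacuoles by autophagy, was 5.70, 5.24 and 5.80 in the controls, 5.10, 5.67 and 5.57 with BMP4 and 5.42, 5.11 and 5.16 with GREM1. The groups overlapped, and GREM1 differed from control by -0.35 ± 0.18 (adjusted p = 0.333). Irgm2, a related GTPase, was 4.98, 4.92 and 4.92 in the controls, 4.94, 5.06 and 4.96 with BMP4 and 4.74, 4.74 and 4.87 with GREM1. Its GREM1 arrays lay below all others, by 0.16 ± 0.077 (SE) against control (adjusted p = 0.292) and by 0.20 ± 0.077 against BMP4 (adjusted p = 0.178). Iigp1 was dim at 2.51 to 3.05 and the antiviral GTPase Mx1 at 2.60 to 3.00. Mx2, its relative, was dim too, at 3.53, 3.45 and 3.32 in the controls, 3.50, 2.96 and 3.21 with BMP4 and 3.44, 3.27 and 3.35 with GREM1.

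Ifit genes, among the strongest responders to type I interferon in many cells, stayed within a narrow range here. Ifit3 was 6.32, 6.10 and 6.40 in the controls, 6.26, 6.44 and 6.29 with BMP4 and 6.45, 6.11 and 6.37 with GREM1. The groups overlapped, and the 95% interval of its difference from control ran from -0.21 to 0.32 with BMP4 and from -0.23 to 0.30 with GREM1. Ifit1 was 4.29, 4.62 and 4.55 in the controls, 4.62, 4.25 and 4.75 with BMP4 and 4.57, 4.86 and 4.62 with GREM1, with intervals of -0.27 to 0.38 and -0.13 to 0.52. Ifit2 was 4.67, 4.77 and 4.64 in the controls, 4.80, 4.56 and 4.53 with BMP4 and 5.04, 4.85 and 4.86 with GREM1. For Ifit2 the GREM1 arrays lay above the other 6, by 0.22 ± 0.098 over control and 0.29 ± 0.098 over BMP4, and neither passed (adjusted p = 0.246 and 0.131). Ifit1bl2, whose start lies beside that of Ifit1 on the other strand, ranged from 3.83 to 4.43 (lowest adjusted p = 0.614).

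Among the oligoadenylate synthetases Oas2 and Oas3 were tested. Oas3 was 5.05, 4.88 and 5.12 in the controls, 5.06, 4.88 and 4.86 with BMP4 and 4.62, 4.99 and 4.83 with GREM1, with a GREM1 difference of -0.20 ± 0.11 (adjusted p = 0.368). Oas2 was 4.69, 4.76 and 4.59 in the controls, 4.70, 4.63 and 4.69 with BMP4 and 4.99, 4.69 and 4.69 with GREM1, with no comparison past the threshold (lowest adjusted p = 0.579). GREM1 replicate 1 was its highest array, and the groups overlapped. The 8 Oas1 genes lay between 2.12 and 3.93. Without the filter 0 of the 19 dim genes passed in any comparison (limma, lowest adjusted p = 0.125), while 0, 2 and 2 had an unadjusted p under 0.05 for BMP4 against control, GREM1 against control and BMP4 against GREM1. The latter 2 counts, both of Gbp11 and Oas1c, are 10.5%, against 5.78% and 4.03% of the 6869 dim genes in all (4.31% for BMP4 against control).

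**Figure D3:**
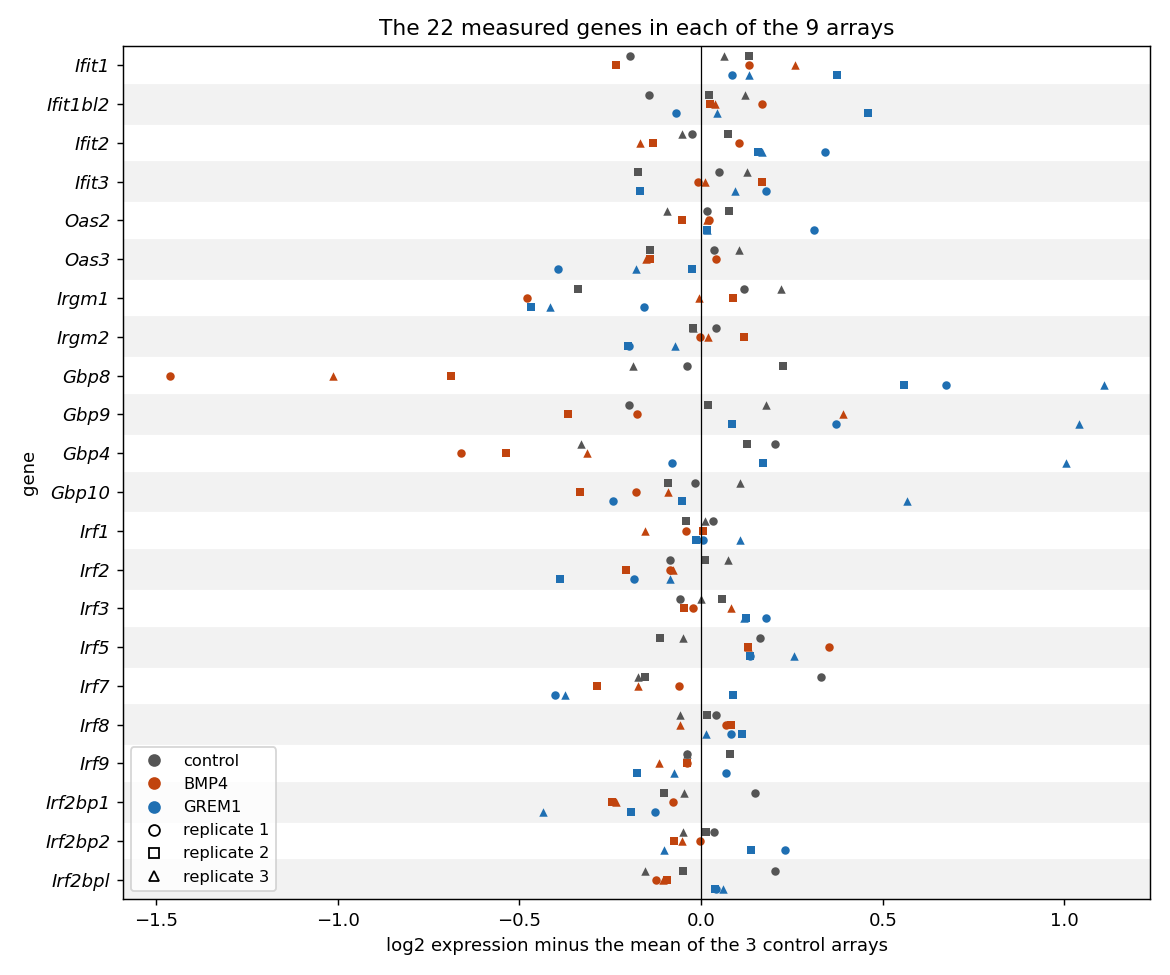
Log2 expression minus the mean of the 3 control arrays (x axis) for each of the 22 tested genes (y axis), 1 point per array, coloured by group and shaped by replicate. Gbp8 spreads over 2.57 log2 units with the groups apart, Gbp4 over 1.67 and Gbp9 over 1.41, and the other 19 genes each over less than 1.

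The factors that carry the interferon signal showed small differences. Irf9, the DNA-binding partner of STAT proteins, was 5.29, 5.41 and 5.29 in the controls, 5.29, 5.29 and 5.21 with BMP4 and 5.40, 5.15 and 5.25 with GREM1 (adjusted p = 0.871 and 0.754 against control). Its 95% interval against control was -0.26 to 0.13 with BMP4 and -0.25 to 0.13 with GREM1. Irf1 was 5.43, 5.35 and 5.40 in the controls, 5.35, 5.40 and 5.24 with BMP4 and 5.40, 5.38 and 5.50 with GREM1, a range of 0.26 over the 9 arrays. Irf2, which competes with IRF1 for the same sites, was 6.85, 6.94 and 7.00 in the controls, 6.85, 6.72 and 6.86 with BMP4 and 6.75, 6.54 and 6.85 with GREM1, at -0.22 ± 0.097 with GREM1 (adjusted p = 0.248). For both factors the groups overlapped in every comparison.

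Irf3, which sits downstream of cytosolic nucleic acid sensors, was 7.60, 7.72 and 7.66 in the controls, 7.64, 7.61 and 7.74 with BMP4 and 7.84, 7.78 and 7.78 with GREM1. The 3 GREM1 arrays lay above the other 6, by 0.14 ± 0.075 over control (adjusted p = 0.338). Irf7, which amplifies interferon production, was 5.48, 4.99 and 4.97 in the controls, 5.09, 4.86 and 4.97 with BMP4 and 4.74, 5.24 and 4.77 with GREM1, with control replicate 1 the highest array. It differed from control by -0.17 ± 0.17 and -0.23 ± 0.17 (adjusted p = 0.817 and 0.494). Irf5, a factor of inflammatory gene expression in myeloid cells, was 4.15, 3.87 and 3.93 in the controls, 4.34, 4.11 and 4.11 with BMP4 and 4.12, 4.12 and 4.24 with GREM1, 0.20 ± 0.10 above control with BMP4 (adjusted p = 0.656). Irf8, also a myeloid factor, ranged from 3.84 to 4.01, close to the cut, and Irf4, a lymphoid factor, was dim at 3.19 to 3.34.

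The 3 genes of IRF2-binding proteins gave no call either. Irf2bp2 was 8.86, 8.84 and 8.77 in the controls, 8.82, 8.75 and 8.77 with BMP4 and 9.05, 8.96 and 8.72 with GREM1. Irf2bp1 was 7.19, 6.94 and 6.99 in the controls, 6.96, 6.79 and 6.80 with BMP4 and 6.91, 6.84 and 6.60 with GREM1, with GREM1 arrays below the controls by 0.25 ± 0.11 (adjusted p = 0.234). Irf2bpl ranged from 6.34 to 6.70, and its GREM1 arrays lay above its BMP4 arrays (difference -0.15 ± 0.096 for BMP4 minus GREM1, adjusted p = 0.451).

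Groups that do not overlap were counted as well. With BMP4 1 of 22 genes (Gbp8, 4.55%) was apart from the controls, against 11.2% of all tested genes. With GREM1 5 of 22 were apart, or 22.7% against 24.0% of all genes. Gbp8, Ifit2 and Irf3 lay above the controls (11.3% of all genes did) and Irf2bp1 and Irgm2 below (12.7% did). Between BMP4 and GREM1 6 of 22 were apart (27.3% against 24.5%). The 5 genes Gbp4, Gbp8, Ifit2, Irf2bpl and Irf3 were lower with BMP4 (22.7%, against 12.2% of all genes) and Irgm2 was higher (4.55%, against 12.3%). Ties can blur such counts. Irf9 and Oas2 each had the same deposited value in 4 arrays, and 9.16% of all tested genes had a value shared by 4 or more.

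The rest of the interferon pathway was read from 4 lists. Of interferon ligands, receptors and signalling genes, 20 were tested. With BMP4 0 passed in limma and 2 had an unadjusted p under 0.05 (2 of 20, against 8.02% of all genes). With GREM1 1 rose and 0 fell, and 6 had an unadjusted p under 0.05 (6 of 20, against 20.0%). Ifngr2, the signal-transducing chain of the interferon gamma receptor, was 8.06, 8.03 and 7.98 in the controls, 8.11, 8.04 and 8.00 with BMP4 and 8.34, 8.64 and 8.72 with GREM1. Its GREM1 arrays lay above the other 6, and it rose by 0.54 ± 0.10 over control (adjusted p = 0.0221) and was 0.51 ± 0.10 lower with BMP4 than with GREM1 (adjusted p = 0.0181). Against control this call was lost without control replicate 1 or 3 (adjusted p = 0.0555 and 0.0764) and without GREM1 replicate 2 or 3 (0.0887 and 0.0581), and in a fit of only the groups compared (0.0600). Between BMP4 and GREM1 it was lost without BMP4 replicate 2 or 3 (adjusted p = 0.0612 and 0.0650) and without GREM1 replicate 2 or 3 (0.0757 and 0.0541).

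Il10rb, a shared chain of the interleukin 10 and interferon lambda receptors, was 6.03, 5.66 and 5.94 in the controls, 5.97, 5.95 and 6.09 with BMP4 and 5.50, 5.48 and 5.67 with GREM1. It was 0.45 ± 0.11 higher with BMP4 than with GREM1 (adjusted p = 0.0393), a call lost when any BMP4 array was left out, or without GREM1 replicate 1 or 2 (adjusted p up to 0.139). Without control replicate 2 it was also lower with GREM1 than in the controls (-0.44, adjusted p = 0.0485, or 0.125 with all arrays). The receptor genes Ifnar1, Ifnar2 and Ifngr1 differed from control by -0.12 to 0.19 with either protein, and Jak1 by 0.093 with BMP4 and 0.0023 with GREM1, none past the threshold. Jak2 was 0.24 ± 0.18 with BMP4 and -0.37 ± 0.18 with GREM1 (adjusted p = 0.747 and 0.283), and with the replicate block it fell with GREM1 (adjusted p = 0.0236), as did the interferon alpha gene Ifna4 at -0.37 (0.0248, or 0.139 without the block). Jak2 was 0.61 ± 0.18 higher with BMP4 than with GREM1 (adjusted p = 0.0775, or 0.0236 with array weights and 0.00180 with the block). Stat2 was 0.084 ± 0.16 with BMP4 and 0.25 ± 0.16 with GREM1 (adjusted p = 0.914 and 0.430). The interferon beta gene Ifnb1 was dim at 2.45 to 2.68 on the 9 arrays.

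Of 29 tested interferon-induced genes outside the families above, 0 passed with BMP4 and 0 with GREM1 against control, with 2 and 7 at an unadjusted p under 0.05 (6.90% and 24.1%, against 8.02% and 20.0% of all genes). Their median differences were -0.053 and -0.017. For BMP4 against GREM1 1 of the 29 passed, higher with BMP4, where 6.45% of all genes passed. In that comparison 7 had an unadjusted p under 0.05 (24.1%, against 19.4%). Trim21 had the smallest unadjusted p of this list with BMP4, at -0.55 from control, and passed in no setting (limma adjusted p at least 0.0626). Between BMP4 and GREM1 it differed by -0.44 and did not pass in the main fit. There it passed with the replicate block (adjusted p = 0.0168), with array weights (0.0385) and without BMP4 replicate 3 (0.0353). Rtp4, an interferon-induced regulator of antiviral signalling, was 6.38, 6.19 and 6.32 in the controls, 6.25, 6.18 and 6.62 with BMP4 and 5.90, 5.70 and 5.80 with GREM1. The GREM1 arrays lay below the other 6, at -0.50 ± 0.12 against control (adjusted p = 0.0546, or 0.0193 with the replicate block and 0.0207 without BMP4 replicate 3). Rtp4 was 0.55 ± 0.12 higher with BMP4 than with GREM1 (adjusted p = 0.0289), a call lost without BMP4 replicate 3 (adjusted p = 0.0621) or without GREM1 replicate 1, 2 or 3 (0.0631, 0.110 and 0.0705). Herc6, a ligase that attaches ISG15, and the RNA-activated kinase Eif2ak2 were -0.55 ± 0.15 and -0.33 ± 0.11 with GREM1 (adjusted p = 0.0795 and 0.140, or 0.0451 and 0.0615 with the block). Herc6 passed against control also without control replicate 2 (-0.75, adjusted p = 0.0103). With the block Isg20 also passed at -0.30 (adjusted p = 0.0336), and Tor3a and Xaf1 at 0.42 and 0.39 (adjusted p = 0.0167 and 0.0467), so that genes of this list lay on both sides of 0. Isg15, the ubiquitin-like modifier, was dim at 2.86 to 3.46.

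Among 17 tested sensors and adaptors that lead to the Irf factors, 0 passed in limma with BMP4 (0 with an unadjusted p under 0.05). With GREM1 1 rose and 1 fell, where 4.28% of all genes passed in either direction. An unadjusted p under 0.05 was found for 2 there (11.8%, against 20.0% of all genes). For BMP4 against GREM1 1 was higher and 1 lower, where 6.45% of all genes passed. In that comparison 4 had an unadjusted p under 0.05 (23.5%, against 19.4%). Tnfaip3, the deubiquitinase A20 that restrains NF-kB and Irf activation, rose by 0.72 ± 0.13 with GREM1 (adjusted p = 0.0197), and was 6.92, 6.82 and 7.10 there against 6.28, 6.45 and 5.94 in the controls and 6.30, 6.11 and 6.11 with BMP4. Tnfaip3 passed between BMP4 and GREM1 under every alternative (adjusted p from 0.00340 to 0.0395), while against control the call was lost without control replicate 1 or 3 (adjusted p = 0.0540 and 0.0501) or any GREM1 array (0.0693, 0.0514 and 0.0581), and in a fit of only the groups compared (0.0538). Nfkbia, the NF-kB inhibitor, fell by 0.62 ± 0.14 with GREM1 (adjusted p = 0.0370), to 7.05, 7.08 and 6.94 from 7.84, 7.55 and 7.54, and was 7.89, 7.51 and 7.39 with BMP4. Leaving out any control array, any GREM1 array or BMP4 replicate 2 lost this call (adjusted p up to 0.110). Nfkbia was also 0.58 ± 0.14 higher with BMP4 than with GREM1 (adjusted p = 0.0370), a call lost in 8 of 18 alternatives, among them without control replicate 2, BMP4 replicate 1 or 2 or any GREM1 array (adjusted p up to 0.109). Of 20 tested antigen presentation genes 0 passed in any comparison, with 2, 5 and 2 at an unadjusted p under 0.05 for BMP4 against control, GREM1 against control and BMP4 against GREM1 (against 8.02%, 20.0% and 19.4% of all genes). The proteasome activator Psme1 was -0.24 ± 0.077 with BMP4 and -0.27 ± 0.077 with GREM1 (adjusted p = 0.490 and 0.0831).

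**Figure D4:**
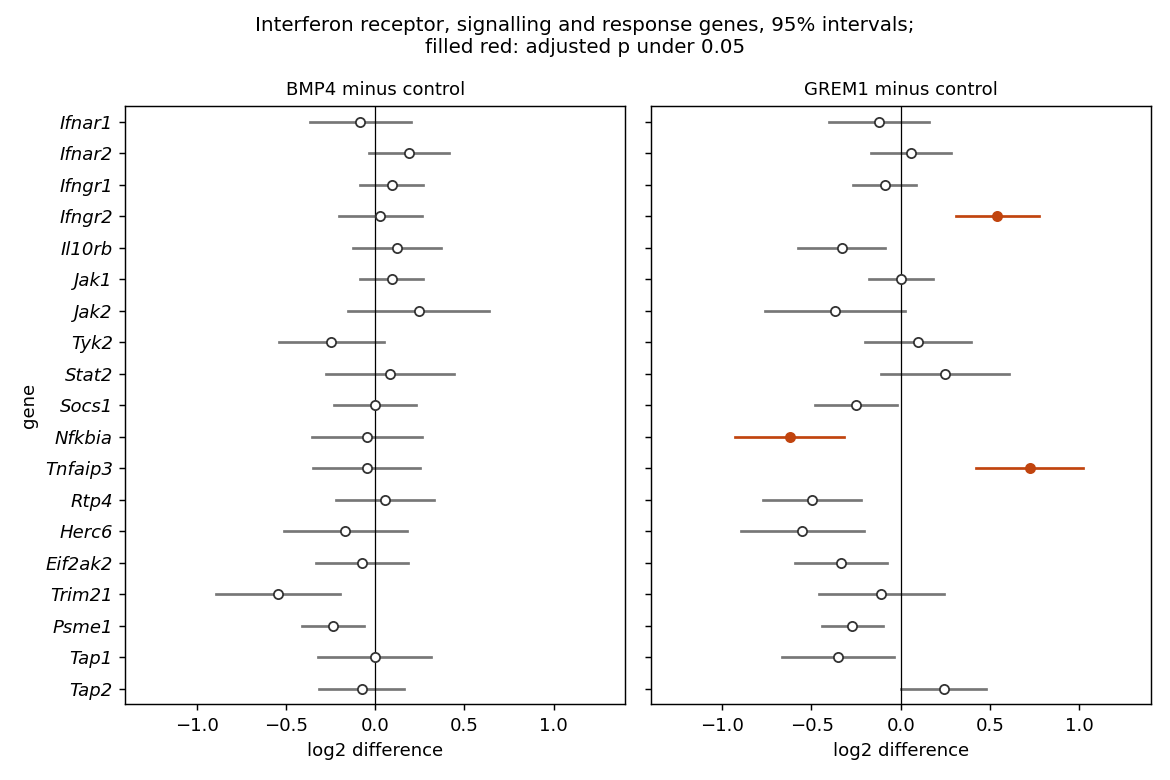
Log2 differences (x axes) from control of 19 interferon receptor, signalling and response genes (y axis) with BMP4 (left) and GREM1 (right), as limma estimates with 95% intervals. Filled red points have an adjusted p under 0.05: Ifngr2 at 0.54, Tnfaip3 at 0.72 and Nfkbia at -0.62 with GREM1, and no gene with BMP4.

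Leukocytes express many of these genes, so their markers were read beside them. Of 16 matched leukocyte markers 10 were tested, and Ptprc, Adgre1, Cd3e, Ly6g, Itgax and Cybb were dim. The mean level over the 16 lay between 4.48 and 4.61 in the controls, 4.40 and 4.50 with BMP4 and 4.49 and 4.54 with GREM1. Laptm5, a lysosomal membrane protein of leukocytes, had its groups in the same order as Gbp8: it was 7.46, 7.62 and 7.62 in the controls, 7.06, 7.29 and 7.17 with BMP4 and 8.71, 8.51 and 8.90 with GREM1. It differed by -0.39 ± 0.11 with BMP4 (adjusted p = 0.406), rose by 1.14 ± 0.11 with GREM1 (adjusted p = 0.00120) and was 1.54 ± 0.11 lower with BMP4 than with GREM1 (adjusted p = 8.07e-05). Cd14, a monocyte co-receptor, was 5.32, 4.39 and 4.54 in the controls, 4.17, 4.39 and 4.65 with BMP4 and 3.80, 3.85 and 3.85 with GREM1. It fell by 0.92 ± 0.22 with GREM1 (adjusted p = 0.0492), a call lost without control replicate 1 or 3, BMP4 replicate 1 or 2 or any GREM1 array (adjusted p up to 0.145). Without control replicate 1 Cd14 passed between BMP4 and GREM1 (0.57, adjusted p = 0.0290, or 0.183 with all arrays), with the opposite sign to Gbp8. The part of other cell types in the Gbp8 difference was not tested. Of 6 tested endothelial and 6 tested fibroblast markers 0 passed against control with either protein. With GREM1 0 and 3 of them had an unadjusted p under 0.05 (0% and 50.0%, against 20.0% of all genes). With BMP4 0 and 0 had one (against 8.02% of all genes). Between BMP4 and GREM1 1 endothelial and 2 fibroblast markers had an unadjusted p under 0.05 (16.7% and 33.3%, against 19.4% of all genes). None of the endothelial markers passed there, and 1 of the 6 fibroblast markers did (6.45% of all genes passed). This was the collagen gene Col1a2, at 4.91, 4.99 and 4.99 in the controls, 4.80, 4.88 and 4.82 with BMP4 and 5.05, 5.21 and 5.17 with GREM1. It was 0.31 ± 0.077 lower with BMP4 than with GREM1 (adjusted p = 0.0448), a call lost when any BMP4 or GREM1 array or control replicate 2 or 3 was left out (adjusted p up to 0.149). The fibroblast markers Pdgfra, Dcn, Lum and Dpt were dim, and the mean level over the 10 lay between 4.45 and 4.51 in the controls, 4.38 and 4.54 with BMP4 and 4.35 and 4.44 with GREM1. In these bulk samples fewer cells of a type and less RNA per cell cannot be told apart.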

How the data were processed

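Gene expression was measured on 9 Affymetrix arrays, 3 per group. The authors deposited log2 values per probe set, and the submitters' processing notes name RMA and Affymetrix Expression Console. The array model and the genome build were not given in the sources used here. RMA corrects background, forces the arrays to a common distribution and leaves no depth to report, so the number of arrays limits the precision. Of 24973 probe sets 24015 had 1 gene symbol and 958 none. For the 4 genes with several probe sets the one with the highest mean was kept.

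Limma 3.58.1 in R 4.3.3 fitted all 9 arrays and 17142 genes, with intervals on 9.47 degrees of freedom, and was tested on simulated data. Alternatives were a replicate block, other fits, scalings and filters, and leaving out each array. After group means were removed, arrays of the same replicate number correlated at 0.17 to 0.58 between control and BMP4. Between control and GREM1 they correlated at 0.12 to 0.47, and between BMP4 and GREM1 at 0.088 to 0.42. Arrays of unlike number reached 0.16 between control and GREM1 and 0.23 between BMP4 and GREM1. Between BMP4 and GREM1 a pair was at 0.088, and 4 of 6 arrays correlated best with their own number. For control and BMP4 6 of 6 did, and for control and GREM1 5 of 6. The numbers thus do not clearly pair BMP4 with GREM1 arrays, and block values of that comparison are an alternative only.

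The genes and lists were chosen with earlier results of these data known. Of the 164 list symbols, 13 had no match and were not analysed here. Values in all arrays are given for each gene of the families or pathway lists called in the main fit. They are also given for the 3 family genes with the smallest unadjusted p per comparison and the leading gene of each family. List genes named were called in some setting, were among the 4 smallest p, or were a few receptors and signalling genes. Not every list gene called in some setting or among the 4 smallest p is named.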

Additional observations from a re-analysis of the deposited data

How the results depend on the processing

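Of 1164 values of the 22 tested genes under the 18 alternatives, 1161 stayed on their side of the threshold and 3 newly passed; 38 changed sign, each of a difference that did not pass in either setting. Gbp8 between BMP4 and GREM1 passed under all 18. The replicate block gave 65, 1985 and 2192 calls over all genes for BMP4 against control, GREM1 against control and BMP4 against GREM1, in place of 20, 734 and 1105. For the 22 genes the block gave 1 call for GREM1 against control (Gbp8) and 2 for BMP4 against GREM1 (Gbp8 and Gbp9, the latter at an adjusted p of 0.0330), and it changed no other call of these genes. The block also gave calls between BMP4 and GREM1 for Lrrc8b and Jak2 (adjusted p = 0.00593 and 0.00180). A fit to only the groups compared gave 5 and 437 calls over all genes for the 2 comparisons with control, array weights gave 68 for BMP4 against control and 1768 for BMP4 against GREM1, and the 50th percentile filter gave 31 for BMP4 against control; the cause was not tested. The median difference of the tested genes for BMP4 against control was -0.039 with quantile normalization once more, -0.029 with centred arrays and -0.11 with the 50th percentile filter. For GREM1 against control it was 0.033 with no filter and 0.041 with the 50th percentile filter, and for BMP4 against GREM1 -0.11 with that filter. Leaving out each array in turn gave 2 to 17, 245 to 901 and 563 to 1159 calls over all genes, and 0 to 0, 0 to 1 and 1 to 1 among the 22 genes. Over these the medians ran from -0.070 to -0.039, from 0.042 to 0.087 and from -0.11 to -0.047. Of 1923 values of the named pathway genes, 42 lost and 26 gained a call. With 3 arrays a group, the 95% interval of a gene shows the change left room for and is not the limit of detection. The Gbp8 difference of BMP4 from control, -1.05 with an interval of -1.52 to -0.59, did not pass (limma adjusted p = 0.147). For the 19 dim genes a low level and a weak probe set cannot be told apart.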
